A study of Mus musculus with 16 samples.

Results

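Potassium channel genes were taken as the protein-coding genes of GENCODE M21, on the mouse genome build GRCm38, whose symbols begin with Kcn and a lower-case letter. This gave 94 of 22028 protein-coding genes, in 21 families from Kcna to Kcnv. A family is the set of symbols that share the letters before the number. The level of a gene in a library was the sum over all assembled transcripts whose largest exonic overlap on the same strand was with that gene, and 388 transcripts of 90 genes were found in this way. None was assigned to Kcnd2, Kcna3, Kcnk18 or Kcnrg, whose levels were not analysed here, and Kcna10 was listed at 0 in every library. Symbols were the only criterion, so the 94 genes also include auxiliary subunits (Kcnab, Kcne, Kcnip, Kcnmb) that form no pore themselves, and they leave out potassium channel genes with other names.

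RNA came from adult C57BL/6J mice, the number of which is not given. Brain was sampled as a whole and as cerebellum, cortex and olfactory bulb. Heart, kidney, liver and tissue labelled testis make up the nonbrain group. Each tissue was captured once with probes against lncRNA loci (the lncRNA design) and once with probes against known splice junctions (the splice junction design), which gives 16 libraries, with no animal that carries an allele or was treated. Brain RNA was extracted with TRIzol and nonbrain RNA with RNeasy from RNAlater-kept pieces of an organ of the same mouse, which were pooled, and the brain and the nonbrain libraries were hybridized in separate pools and amplified with different numbers of PCR cycles. Tissue group, extraction, hybridization pool and PCR therefore cannot be told apart. The 4 brain tissues overlap, since the whole brain includes the other 3, whereas the 4 nonbrain tissues come from separate organs. The tests measure the spread between different tissues of a group, not between mice.

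Potassium channels let potassium ions leave cells, and they set the resting potential and end action potentials. Voltage-gated channels (Kcna to Kcnd, Kcnq, Kcnh) open when the membrane is depolarized. The subunits of Kcnf, Kcng, Kcns and Kcnv form no channel by themselves and alter those of Kcnb, and Kcnab, Kcnip and Kcne proteins are auxiliary subunits. Kcnma, Kcnn and Kcnt channels open with calcium or sodium inside the cell. Kcnj channels are inward rectifiers, and Kcnk channels, with tandem pore domains, carry leak currents. Neurons use most of these families. The heart repolarizes through Kcnh2 and Kcnq1, and the kidney recycles and secretes potassium through Kcnj1 and related channels.

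The libraries held 8930235 to 43889288 fragments, of which 7.81% to 45.6% were ERCC spike-ins. Libraries labelled testis went against their label. In the splice junction design they had a summed level of 1.36 FPKM for 6 germ cell markers, against 0.69 to 23.1 FPKM in the other tissues, and of 4125 FPKM for 4 keratinocyte markers, against 1.16 to 73.6 FPKM. Heart, kidney, liver and cerebellum were highest for their own markers in that design. Neuron markers summed to 814 to 1103 FPKM in the brain tissues and to 0.174 to 15.2 FPKM in the nonbrain tissues. An exact 0 can be a failed estimate in these files, since the heart muscle gene Myh6 had 320330 normalized fragments in the lncRNA library of heart but was listed at 0 in the splice junction library of the same tissue. A gene is therefore said to be listed at 0, and no fold of brain over nonbrain tissues is given within a design against a group at 0.

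Fragments on potassium channel genes were counted as a share of all fragments that were not spike-ins. The share in the splice junction design was 0.835%, 0.550%, 1.10% and 0.669% in whole brain, cerebellum, cortex and olfactory bulb, against 0.130%, 0.173%, 0.0137% and 0.0326% in heart, kidney, liver and the tissue labelled testis. All 4 brain tissues were above all 4 nonbrain tissues. The means were 0.789% ± 0.240 (SD, n = 4) in the brain tissues and 0.0875% ± 0.0767 (SD, n = 4) in the nonbrain tissues. The lncRNA design gave 0.541%, 0.247%, 0.592% and 0.255% in the brain tissues, against 0.0638%, 0.421%, 0.0124% and 0.0233% in the nonbrain tissues, with means of 0.409% ± 0.183 and 0.130% ± 0.195 (SD, n = 4 each). There the groups overlapped through kidney, where a single gene, Kcnj15, gave most of the fragments. The 95% Wilson intervals of these shares were narrow, for example 0.0117% to 0.0130% for liver in the lncRNA design, and they cover counting error only. In bulk tissue, fewer cells of a type and less RNA per cell cannot be told apart.

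Between 78 and 83 of the 94 genes had at least 3 fragments in a brain library of the splice junction design, against 41 to 54 in a nonbrain library. The lncRNA design had 55 to 65 such genes in the brain libraries and 14 to 29 in the nonbrain libraries. Under 3 fragments in every library were 6 genes in the splice junction design and 12 genes in the lncRNA design, the 4 with no assigned transcript included, where a level of up to 3 fragments cannot be told from none.

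Families were compared by their summed FPKM, fragments scaled to the length of the assembled transcript and to the non-spike-in fragments of the library, which sets genes of different length side by side. Values are given below in the order whole brain, cerebellum, cortex and olfactory bulb for the brain tissues, and heart, kidney, liver and labelled testis for the nonbrain tissues. The auxiliary Kcnab family had the highest level of any family in each brain tissue of the splice junction design, at 1717, 946, 1690 and 910.0 in the brain tissues, against 15.9, 13.4, 2.54 and 13.2 in the nonbrain tissues. The Kcnh family (ether-à-go-go channels) summed to 509, 149, 980.3 and 769.7 in the brain tissues, against 17.7, 8.63, 0.4297 and 14.6 in the nonbrain tissues. Cortex was highest and cerebellum lowest of the brain tissues. The Kcnip family, calcium-binding subunits of Kcnd channels, summed to 469, 529, 455 and 399 in the brain tissues, against 159, 2.16, 0.822 and 8.52 in the nonbrain tissues, with heart standing apart from the other 3 nonbrain tissues. Inward rectifiers overlapped between the groups, with Kcnj at 212, 241, 181 and 132 in the brain tissues, against 126, 183, 4.07 and 7.44 in the nonbrain tissues. Leak channels overlapped too, with Kcnk at 201, 309, 163 and 91.3 in the brain tissues, against 27.2, 255, 16.3 and 74.2 in the nonbrain tissues. Kcnq summed to 129, 33.7, 216 and 94.4 in the brain tissues, against 109, 49.5, 5.85 and 7.76 in the nonbrain tissues, and heart lay among the brain tissues.

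**Figure D1:**
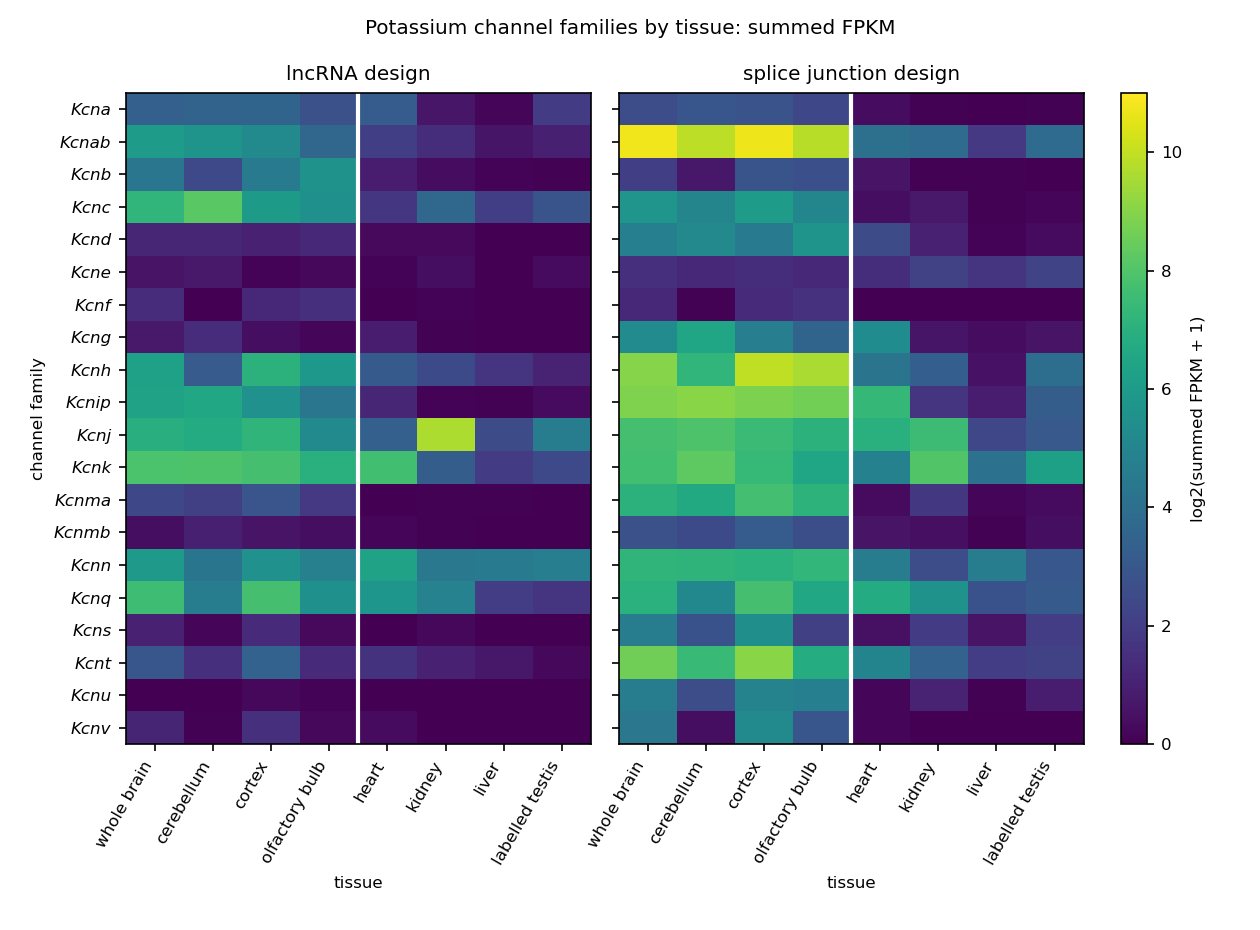
Summed level of each potassium channel family per tissue, with a panel for each capture design and log2(summed FPKM + 1) as color. The brain tissues stand left of the nonbrain tissues, with a white line between them. Kcnab is the brightest row of the brain tissues in the splice junction design, and Kcnj in kidney (806 FPKM) the brightest field of the nonbrain tissues in the lncRNA design. Kcnrg, with no assigned transcript, is left out.

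The lncRNA design gave another order of families. Kcnk, at 239, 239, 217 and 125 in the brain tissues, against 202, 8.595, 2.81 and 4.46 in the nonbrain tissues, and Kcnq, at 191, 24.6, 214 and 45.1 in the brain tissues, against 53.8, 28.7, 3.002 and 2.17 in the nonbrain tissues, had the highest sums in whole brain and cortex. Kcnab reached only 64.4, 51.3, 37.9 and 11.4 FPKM in the brain tissues of this design. Kcnj in kidney had the highest family sum of any tissue in the lncRNA design, and Kcnk in heart, at 202 FPKM, was close to the brain tissues.

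Brain and nonbrain tissues were compared with limma on log2(normalized fragments + 1) for all gene models with a mean of at least 10 normalized fragments over the 8 libraries of a design. A gene passed at a Benjamini-Hochberg adjusted p under 0.05 over all gene models. In the splice junction design 76 of the 94 genes were tested, and 51 were higher and 5 lower in the brain tissues. Over all 17604 gene models tested, the shares were 21.5% for higher and 16.2% for lower. The median log2 difference was 4.47 for the potassium channel genes and 0.11 for all gene models. In the lncRNA design 58 were tested, and 38 were higher and 3 lower, against shares of 21.7% and 5.24% over all 28541 gene models, with median log2 differences of 4.80 and 0.49. Genes that had under 10 normalized fragments on average could not be tested, so these counts do not cover all 94 genes. Without the libraries labelled testis, 51 were higher and 5 lower in the splice junction design, and 36 and 3 in the lncRNA design.

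**Figure D2:**
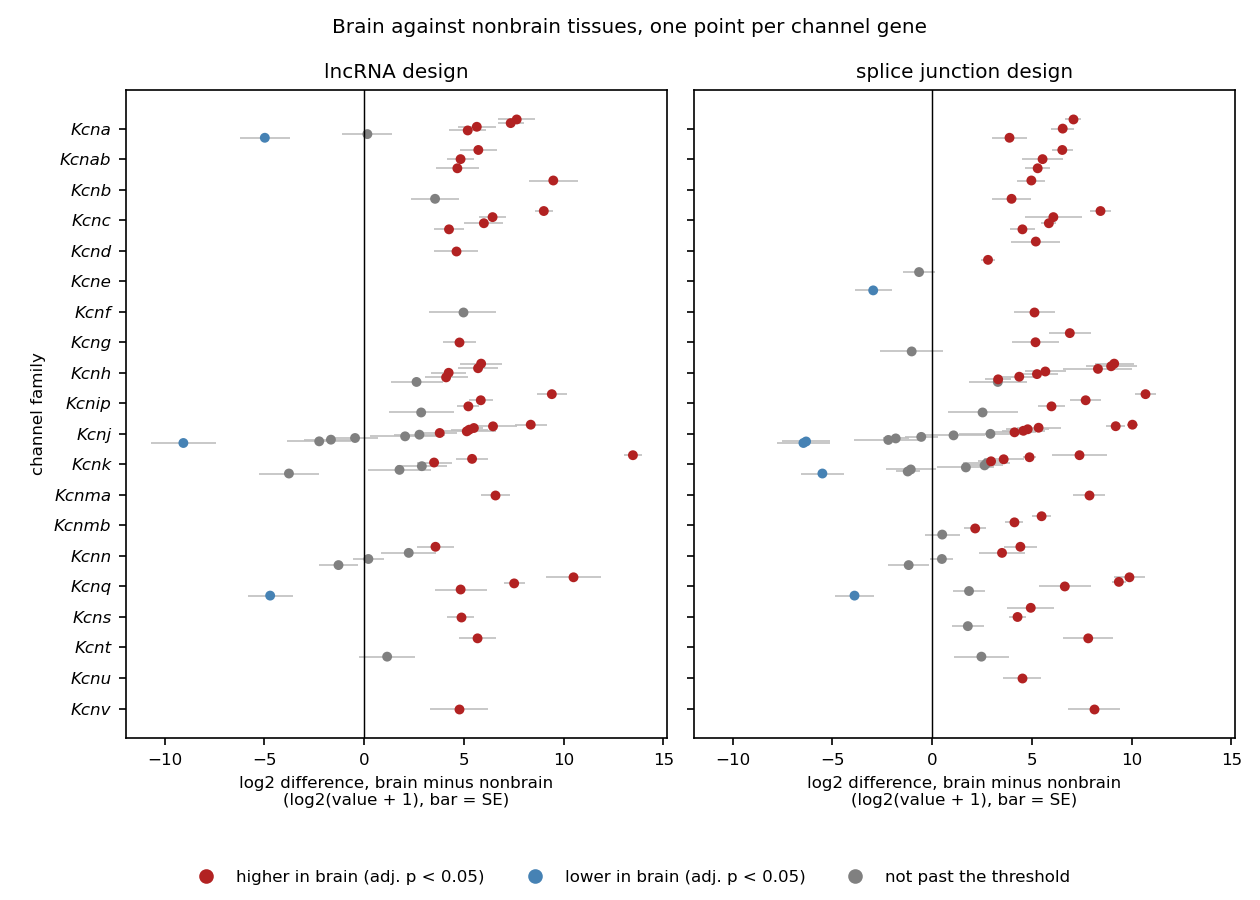
Log2 difference of brain over nonbrain tissues (limma, log2(normalized fragments + 1), n = 4 tissues each) for each potassium channel gene by family, with a panel for each design. Red points were higher and blue points lower in brain at an adjusted p under 0.05, grey points did not pass, and bars are standard errors. Most points are red and lie right of 0, and the blue points left of 0 are Kcna7, Kcnj15 and Kcnq1 in the lncRNA design and Kcne3, Kcnj1, Kcnj15, Kcnk5 and Kcnq1 in the splice junction design.

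Among the pore-forming subunits of the Shaker family, Kcna1 and Kcna2, which keep axons from firing repeatedly, were higher in brain in both designs. Kcna1 had 112, 234, 151 and 48.2 in the brain tissues, against 0, 0, 0 and 1.599 in the nonbrain tissues in normalized fragments of the splice junction design (log2 difference 6.54 ± 0.57 (SE), adjusted p = 0.000104). No nonbrain tissue reached the lowest brain tissue. Kcna2 gave 167, 254, 229.8 and 132 in the brain tissues, against 0, 0, 0.870 and 1.07 in the nonbrain tissues in the same design (log2 difference 7.09 ± 0.4 (SE), adjusted p = 1.29e-05). Of the 8 Kcna genes, 3 of 3 tested were higher in the splice junction design. In the lncRNA design, 4 of 6 tested were higher and 1, Kcna7, was lower. Kcna7, known from striated muscle, had 3.91, 0, 1.403 and 1.38 in the brain tissues, against 696, 27.04, 7.72 and 163 in the nonbrain tissues in the lncRNA design, where its highest level was in heart (log2 difference -4.98 ± 1.25 (SE), adjusted p = 0.0162). In the splice junction design Kcna7 had at most 6.42 normalized fragments, in heart. All 3 Kcnab genes, whose proteins bind to Kcna channels, were higher in brain in both designs. Kcnab2 had the highest FPKM of all potassium channel genes in whole brain (1314), cortex (1335) and olfactory bulb (764) of the splice junction design, and Kcnab1 (485) in cerebellum. In normalized fragments, Kcnab2 had 12927, 4070, 13949 and 7034 in the brain tissues, against 122, 129.7, 43.5 and 99.7 in the nonbrain tissues (log2 difference 6.52 ± 0.54 (SE), adjusted p = 7.93e-05). An annotated lncRNA, A330015K06Rik, lies antisense to Kcnab1. The kit marks strand, but the strand setting of the counting is not given in the sources used here.

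Kcnb2 forms delayed rectifier channels of neurons. It gave 24.6, 10.4, 42.02 and 129 in the brain tissues, against 0, 0.668, 0 and 0 in the nonbrain tissues in the splice junction design (log2 difference 4.97 ± 0.7 (SE), adjusted p = 0.0012). The Kcnc family carries the fast delayed rectifier current of neurons that fire at high rates. Kcnc1 was listed at 0 in all 4 nonbrain tissues in both designs and had 532, 803, 376 and 426 in the brain tissues of the lncRNA design. The fitted difference of a gene with a group at 0 depends on the pseudocount and is no bound. Kcnc1 is on chromosome 7 (46396497 to 46438704, plus strand). The window around its start, 250 bases before to 50 after it, is shown from RefSeq on GRCm38.p6 (chr7:46396218-46396517, plus strand), since assembled transcripts that begin within 50 bases of this start held 22.8% (lncRNA design) and 51.2% (splice junction design) of the gene's fragments. Capitals mark GGGCGG, the GC box, on either strand.
Kcnc1: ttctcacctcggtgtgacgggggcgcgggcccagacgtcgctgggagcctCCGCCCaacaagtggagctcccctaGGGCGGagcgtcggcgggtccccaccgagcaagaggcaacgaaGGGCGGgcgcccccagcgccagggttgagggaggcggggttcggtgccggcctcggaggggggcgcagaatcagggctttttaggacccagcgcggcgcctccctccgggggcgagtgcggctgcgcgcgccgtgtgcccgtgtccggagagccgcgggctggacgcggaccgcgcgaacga

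Kcnd channels carry the A-type current of dendrites and of heart muscle, and Kcnip proteins bind to them. Kcnd3 gave 1537, 2166, 1294 and 2609 in the brain tissues, against 526, 104, 7.83 and 11.7 in the nonbrain tissues in the splice junction design (log2 difference 5.2 ± 1.22 (SE), adjusted p = 0.0121), with heart as the highest of the nonbrain tissues. Kcnip4 had the largest log2 difference of the splice junction design, with 2439, 4671, 2305 and 1028 in the brain tissues, against 0, 1.34, 0 and 0.533 in the nonbrain tissues (log2 difference 10.69 ± 0.53 (SE), adjusted p = 7.24e-06). Its levels in the lncRNA design were 3546, 3640.4, 1909 and 741 in the brain tissues, against 0, 3.38, 2.57 and 4.56 in the nonbrain tissues. Kcnip1 and Kcnip3 were also higher in both designs. Kcnip2, which in heart muscle shapes the transient outward current, was the exception, with 2016, 80.9, 2390.5 and 3046 in the brain tissues, against 4825, 44.8, 40.9 and 116 in the nonbrain tissues in the splice junction design. Heart had the highest level in normalized fragments, but in FPKM, which is scaled to the fragments of each library, olfactory bulb (192.8) was above heart (157.6). Cerebellum lay below the tissue labelled testis. Kcnip2 did not pass over all tissues (adjusted p = 0.28), and it was higher in brain without heart, by 4.11 (adjusted p = 0.0416) in the splice junction design and by 4.32 (adjusted p = 0.0348) in the lncRNA design.

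Kcnq3 is a subunit of the M channel, which restrains repetitive firing of neurons. Kcnq3 had 2688, 532, 4761 and 1115 in the brain tissues, against 0, 2.01, 0 and 2.13 in the nonbrain tissues in the splice junction design (log2 difference 9.89 ± 0.76 (SE), adjusted p = 5.62e-05) and 50124, 5358, 54941 and 11415 in the brain tissues, against 9.54, 81.1, 0 and 44.4 in the nonbrain tissues in the lncRNA design. Kcnq5 gave 3897, 161, 8147 and 2644 in the brain tissues, against 30.5, 6.68, 6.09 and 76.8 in the nonbrain tissues (log2 difference 6.65 ± 1.3 (SE), adjusted p = 0.00539), so cerebellum was far below the other brain tissues. Kcnq1, the slow delayed rectifier of heart and a channel of epithelia, went the other way and is described with the organs. Of the 5 Kcne genes, single-pass auxiliary subunits, only Kcne3 and Kcne4 could be tested. Kcne1, the partner of Kcnq1 in heart and inner ear, had 4.68 normalized fragments in kidney of the splice junction design and was listed at 0 in the other 7 tissues there, heart included.

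Of the Kcnh family, 7 of 8 genes were higher in brain in the splice junction design and 4 of 5 tested in the lncRNA design. Kcnh3, a channel of forebrain neurons, had 3609, 157, 6668 and 5400.1 in the brain tissues, against 3.21, 9.36, 0 and 6.398 in the nonbrain tissues (log2 difference 8.97 ± 1.28 (SE), adjusted p = 0.00127) in the splice junction design. Kcnh5 gave 5076, 306, 11342 and 8899 in the brain tissues, against 1.604, 301, 4.35 and 2.67 in the nonbrain tissues (log2 difference 8.31 ± 1.73 (SE), adjusted p = 0.00713), and kidney was close to cerebellum in normalized fragments but not in FPKM (13.2 in cerebellum, against 7.47 in kidney). Kcnh7 had 1852, 218, 4832 and 2379 in the brain tissues of the splice junction design and at most 4.68 in a nonbrain tissue (log2 difference 9.12 ± 0.99 (SE), adjusted p = 0.000325). Kcnh2, the rapid delayed rectifier of heart, was the gene of this family that did not pass, with 479, 352, 323 and 1079 in the brain tissues, against 1379.5, 24.1, 15.7 and 10.1 in the nonbrain tissues. Heart was above all brain tissues in normalized fragments, whereas in FPKM olfactory bulb (28.3) was above heart (16.9). Without heart, Kcnh2 was higher in brain by 4.88 (adjusted p = 0.000688) in the splice junction design and by 3.97 (adjusted p = 0.00741) in the lncRNA design. Kcnh1 had 2258, 2954, 4271 and 1796 in the brain tissues, against 30.5, 22.7, 18.3 and 522 in the nonbrain tissues (log2 difference 5.67 ± 1.01 (SE), adjusted p = 0.00361), where the tissue labelled testis stood above the other nonbrain tissues.

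Of the 10 genes for subunits that do not form channels alone (Kcnf1, Kcng1 to Kcng4, Kcns1 to Kcns3, Kcnv1 and Kcnv2), 8 were tested in the splice junction design and 6 were higher in brain. Kcnv1 was listed at 0 in all nonbrain tissues of both designs and had 836, 14.2, 1669.8 and 287 in the brain tissues of the splice junction design. Kcng4 gave 478, 1843, 159.9 and 119 in the brain tissues, against 9.62, 0.668, 0 and 3.73 in the nonbrain tissues (log2 difference 6.9 ± 1.04 (SE), adjusted p = 0.00162), highest in cerebellum. Kcng2 had 64.2, 7.28, 50.9 and 40.1 in the brain tissues, against 2206, 22.1, 26.1 and 13.3 in the nonbrain tissues, and almost all of it was in heart, so the adjusted p was 0.632.

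Kcnma1, the large-conductance calcium-activated channel, had 6124, 4326, 11086 and 6401 in the brain tissues, against 19.2, 168, 13.1 and 12.3 in the nonbrain tissues in the splice junction design (log2 difference 7.87 ± 0.82 (SE), adjusted p = 0.000278). Its auxiliary subunit Kcnmb4, known from neurons, was listed at 0 in the nonbrain tissues of both designs and had 52.7, 44.1, 87.8 and 17.8 in the brain tissues of the splice junction design. Kcnmb1, the subunit of smooth muscle, gave 11, 13.8, 9.297 and 14.6 in the brain tissues, against 40.1, 14.7, 0.870 and 4.798 in the nonbrain tissues (adjusted p = 0.668), and the groups overlapped. Sodium-activated Kcnt1 had 2118, 7584, 3364 and 2605 in the brain tissues, against 20.9, 188, 1.74 and 3.73 in the nonbrain tissues (log2 difference 7.82 ± 1.25 (SE), adjusted p = 0.00211). Its relative Kcnt2 gave 5795, 136, 10063 and 917 in the brain tissues, against 1140.5, 299, 241 and 93.3 in the nonbrain tissues, where cerebellum was below 3 of the 4 nonbrain tissues, and below 2 of them in FPKM. Kcnt2 did not pass over all tissues (adjusted p = 0.187) and was higher in brain by 3.67 without cerebellum (adjusted p = 0.0409). Among the small-conductance Kcnn channels, Kcnn3 was higher in brain in both designs and Kcnn2 in the splice junction design. Kcnn2 had 1840.4, 2143, 1830.4 and 2046 in the brain tissues, against 555, 66.2, 1074 and 21.3 in the nonbrain tissues (log2 difference 3.5 ± 1.14 (SE), adjusted p = 0.0423), with liver above heart. Its call was lost without whole brain, cerebellum, cortex, olfactory bulb, kidney or the tissue labelled testis, with adjusted p from 0.0617 to 0.0954. Kcnu1, whose channel in mouse is known from sperm, was highest in brain here, with 225, 62.5, 306 and 266 in the brain tissues, against 3.21, 29.4, 0.870 and 17.1 in the nonbrain tissues (log2 difference 4.51 ± 0.95 (SE), adjusted p = 0.00735). The tissue labelled testis gave 32 fragments on this gene, in a library with few germ cell transcripts.

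The neuronal inward rectifiers Kcnj3, Kcnj6 and Kcnj9 are opened by G proteins. Kcnj6 was listed at 0 in the nonbrain tissues of both designs and had 1021, 1108, 1299 and 832 in the brain tissues of the splice junction design. Kcnj9 had 702, 1057, 1359 and 369 in the brain tissues, against 0, 0.668, 0.870 and 0 in the nonbrain tissues in the same design (log2 difference 9.2 ± 0.48 (SE), adjusted p = 9.60e-06). Kcnj3, which is also part of the channel that slows the heart, had 47.7, 62.1, 71.8 and 57.1 in the brain tissues, against 43.3, 0.668, 0.870 and 0 in the nonbrain tissues, with heart near the brain tissues (log2 difference 4.13 ± 1.1 (SE), adjusted p = 0.02). That call was lost without cortex (adjusted p = 0.0548) or liver (adjusted p = 0.0502). Kcnj10, the channel by which astrocytes take up potassium, gave 363, 268, 208 and 589 in the brain tissues, against 6.42, 88.2, 0.870 and 2.67 in the nonbrain tissues (log2 difference 5.34 ± 1.11 (SE), adjusted p = 0.00701). Kcnj13, known from epithelia including the choroid plexus, had 857, 1185, 114 and 203 in the brain tissues, against 1.604, 45.5, 24.4 and 12.3 in the nonbrain tissues (log2 difference 4.79 ± 1.06 (SE), adjusted p = 0.00934), and cerebellum and whole brain were above cortex and olfactory bulb. The start windows of Kcnj9 and Kcnj6 are shown since both genes were at or near 0 in the nonbrain libraries of the splice junction design, and that of Kcnj13 for contrast, as an epithelial gene. Kcnj9 is on chromosome 1 (172320501 to 172329318, minus strand), and its window (chr1:172329273-172329572, minus strand) holds TATAAA, the letters of the TATA box, in capitals. Assembled transcripts that start there held 99.9% (lncRNA design) and 66.0% (splice junction design) of its fragments. Kcnj6 is on chromosome 16 (94748636 to 94997701, minus strand), and neither TATAAA nor GGGCGG occurs in its window (chr16:94997647-94997946, minus strand), where transcripts with 96.4% and 99.8% of its fragments start. Kcnj13 is on chromosome 1 (87386363 to 87394729, minus strand), and its window (chr1:87394680-87394979, minus strand) holds TATAAA in capitals. Transcripts that start there held 91.4% (lncRNA design) and 99.99% (splice junction design) of its fragments.
Kcnj9: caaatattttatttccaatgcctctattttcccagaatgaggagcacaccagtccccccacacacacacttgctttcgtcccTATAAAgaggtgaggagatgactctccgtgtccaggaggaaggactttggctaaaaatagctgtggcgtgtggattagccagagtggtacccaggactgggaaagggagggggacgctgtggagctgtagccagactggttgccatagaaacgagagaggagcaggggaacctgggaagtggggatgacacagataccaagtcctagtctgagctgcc
Kcnj6: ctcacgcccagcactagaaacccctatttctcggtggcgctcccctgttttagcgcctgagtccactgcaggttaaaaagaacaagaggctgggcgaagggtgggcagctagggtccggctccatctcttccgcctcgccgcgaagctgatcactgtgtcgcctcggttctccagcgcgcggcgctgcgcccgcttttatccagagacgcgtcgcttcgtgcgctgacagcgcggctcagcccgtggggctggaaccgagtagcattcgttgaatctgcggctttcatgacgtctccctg
Kcnj13: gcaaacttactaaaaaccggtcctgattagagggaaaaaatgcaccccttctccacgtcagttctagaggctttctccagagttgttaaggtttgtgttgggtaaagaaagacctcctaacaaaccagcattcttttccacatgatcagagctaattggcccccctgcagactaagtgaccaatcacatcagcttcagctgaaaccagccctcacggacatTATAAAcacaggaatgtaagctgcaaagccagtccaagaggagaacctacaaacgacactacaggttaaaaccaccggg

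Of the leak channels, 4 of 10 tested Kcnk genes were higher and 1 lower in brain in the splice junction design. Kcnk9 had the largest log2 difference of the lncRNA design. It was listed at 0 in all nonbrain tissues of both designs, and it had 16821, 10149, 13043 and 7389.6 in the brain tissues of the lncRNA design and 24.9, 30.3, 41.3 and 21.1 in those of the splice junction design. Kcnk10 gave 648, 2012, 151 and 279 in the brain tissues, against 0, 0, 45.2 and 0.533 in the nonbrain tissues in the splice junction design (log2 difference 7.39 ± 1.36 (SE), adjusted p = 0.00414). Kcnk2, a channel opened by stretch and lipids, had 1026, 263, 1187 and 569.7 in the brain tissues, against 101, 20.1, 13.1 and 292 in the nonbrain tissues (log2 difference 3.59 ± 1.00 (SE), adjusted p = 0.0239), with the tissue labelled testis above cerebellum on this scale and below it in FPKM (7.65 in cerebellum, against 6.35 in the tissue labelled testis). That call was lost without whole brain, cortex, olfactory bulb, kidney or liver, with adjusted p from 0.0517 to 0.0693. Kcnk1 gave 1256, 1929, 1220.5 and 562 in the brain tissues, against 67.4, 347, 54.8 and 856 in the nonbrain tissues and did not pass (adjusted p = 0.0511). The tissue labelled testis lay among the brain tissues, and without it the log2 difference was 3.37 (adjusted p = 0.0122).

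Genes lower in brain were epithelial or cardiac channels. Kcnk5, a leak channel of kidney tubules that responds to acid and base, had 54.98, 29.9, 14.9 and 66 in the brain tissues, against 372, 15560, 1424 and 931 in the nonbrain tissues in the splice junction design (log2 difference -5.5 ± 1.09 (SE), adjusted p = 0.00569). At 243.3 FPKM in kidney it had the highest level of all potassium channel genes in a nonbrain tissue of that design. Kcnj1, the channel of the thick ascending limb and collecting duct through which potassium is secreted, had 0, 0, 0 and 0.8098 in the brain tissues, against 43.3, 2336, 46.98 and 20.3 in the nonbrain tissues (log2 difference -6.45 ± 1.35 (SE), adjusted p = 0.00724). The lncRNA design gave 0, 0, 0 and 0 in the brain tissues, against 0, 242, 0 and 1.14 in the nonbrain tissues, and the adjusted p was 0.332. Kcnj15, another inward rectifier of kidney, had 0.289, 0.383, 0.744 and 0 in the brain tissues, against 32.1, 1754, 43.5 and 47.5 in the nonbrain tissues in the splice junction design (log2 difference -6.32 ± 1.2 (SE), adjusted p = 0.00468). In the lncRNA design it had 11.7, 0, 1.403 and 20.7 in the brain tissues, against 658, 81487, 535 and 1887 in the nonbrain tissues (log2 difference -9.06 ± 1.64 (SE), adjusted p = 0.00297), and its 792.6 FPKM in kidney was the highest level of any potassium channel gene in that design. Kcnj16 gave 532, 347, 344 and 564 in the brain tissues, against 57.7, 7876, 114 and 33.6 in the nonbrain tissues, so it was highest in kidney and intermediate in brain, and did not pass (adjusted p = 0.61). Without kidney it was higher in brain by 2.82 (adjusted p = 0.00516) in the splice junction design and by 4.11 (adjusted p = 0.00183) in the lncRNA design.

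The low levels of these genes in the other nonbrain tissues were compared with those of kidney markers. In the splice junction design, Umod, Slc12a1, Slc34a1 and Aqp2 had 1.61% to 2.46% of their kidney level in heart, 1.94% to 2.97% in liver and 0.797% to 1.19% in the tissue labelled testis, but at most 0.125% in a brain tissue. Kcnj1 had 1.85%, 2.01% and 0.868% of its kidney level in heart, liver and the tissue labelled testis, which is within these ranges. Kcnj15 was at 1.83%, 2.48% and 2.71%, within the range in heart and liver and above it in the tissue labelled testis. Kcnk5 was at 2.39%, 9.15% and 5.98%, above the range in liver and the tissue labelled testis. Kcnj16, at 0.733%, 1.45% and 0.427%, was below the range in each of these tissues. The part of this shared low level in the calls was not tested. Without kidney, the log2 differences in the splice junction design were -4.94 for Kcnj1 (adjusted p = 0.000319), -4.97 for Kcnj15 (adjusted p = 0.000119) and -4.43 for Kcnk5 (adjusted p = 0.00294), so these calls then rested on the low levels in heart, liver and the tissue labelled testis.

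**Figure D3:**
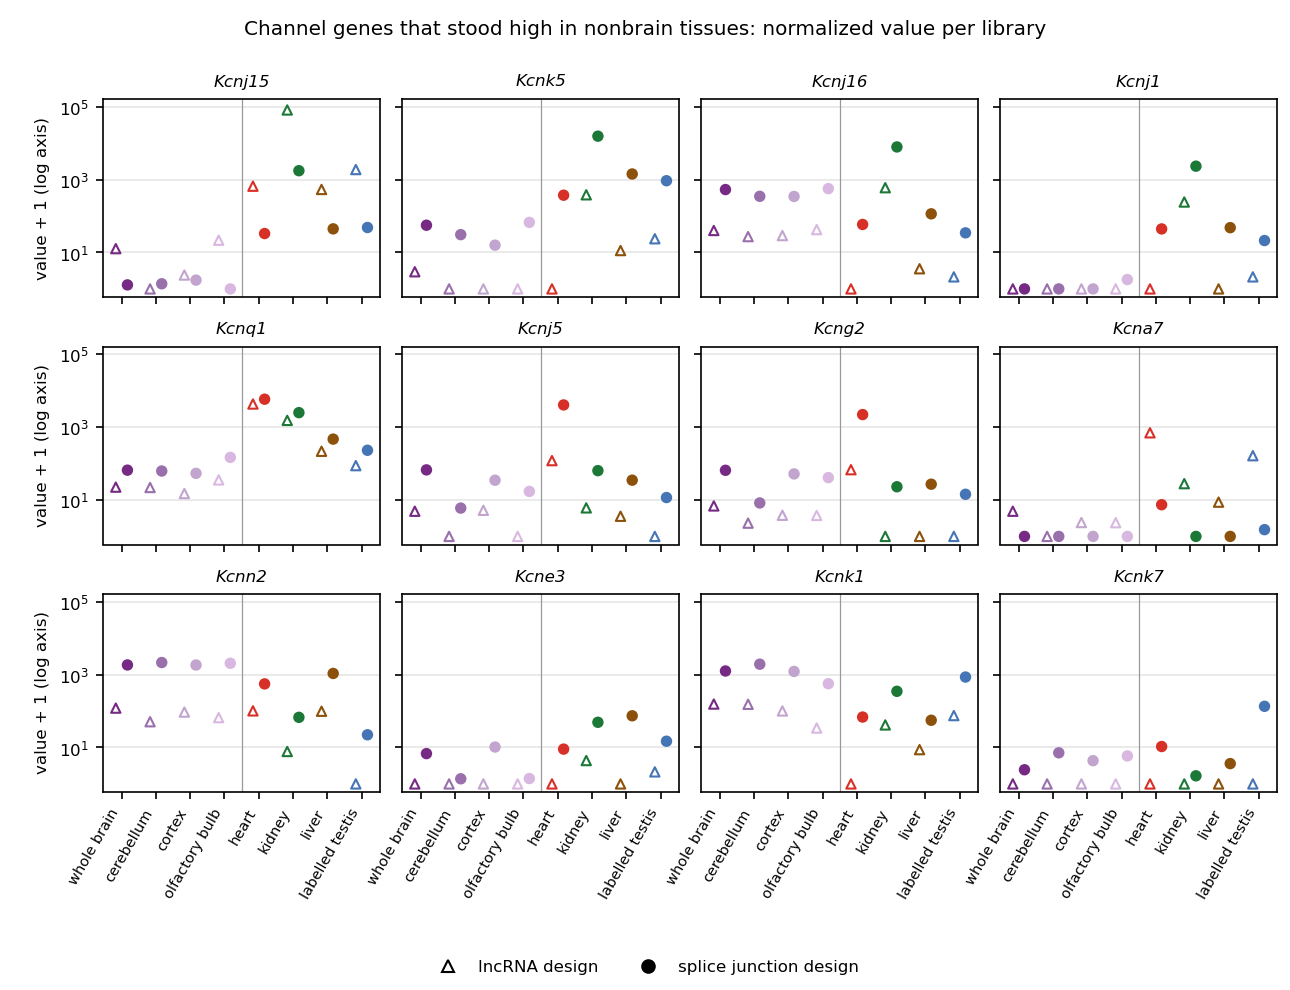
Normalized fragments + 1 (log axis) of 12 potassium channel genes with a high level in a nonbrain tissue, with brain tissues left of nonbrain tissues in each panel. Open triangles are the lncRNA design and filled circles the splice junction design, with 1 library each. Kcnj15, Kcnk5, Kcnj16 and Kcnj1 are highest in kidney, and Kcnq1, Kcnj5 and Kcng2 in heart.

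Kidney genes differed in the window around their start. Kcnk5 is on chromosome 14 (20140057 to 20181809, minus strand), and its window (chr14:20181733-20182032, minus strand) holds GGGCGG 3 times, in capitals. Transcripts that start there held 99.6% (lncRNA design) and 99.8% (splice junction design) of its fragments. Kcnj15 is on chromosome 16 (95257558 to 95300260, plus strand), and its window (chr16:95257308-95257607, plus strand) holds TATAAA on the reverse strand, written TTTATA in capitals. Transcripts that start within 50 bases of this start held 1.57% (lncRNA design) and 56.3% (splice junction design) of its fragments. These windows are shown since the genes carry the largest kidney levels.
Kcnk5: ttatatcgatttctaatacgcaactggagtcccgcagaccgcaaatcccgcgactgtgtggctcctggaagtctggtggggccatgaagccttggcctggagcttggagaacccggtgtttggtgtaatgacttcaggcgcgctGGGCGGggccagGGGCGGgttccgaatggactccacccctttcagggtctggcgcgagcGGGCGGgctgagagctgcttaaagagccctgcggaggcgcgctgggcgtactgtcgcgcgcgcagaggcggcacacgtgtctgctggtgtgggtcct
Kcnj15: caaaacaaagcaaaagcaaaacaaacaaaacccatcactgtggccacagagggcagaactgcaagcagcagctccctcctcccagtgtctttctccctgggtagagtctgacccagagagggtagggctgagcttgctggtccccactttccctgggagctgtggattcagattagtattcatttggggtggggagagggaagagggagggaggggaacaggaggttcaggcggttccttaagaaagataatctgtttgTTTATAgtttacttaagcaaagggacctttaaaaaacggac

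Kcnq1 had the most fragments of the members in heart of the splice junction design. Its levels were 64.8, 61.3, 52.8 and 147 in the brain tissues, against 5831, 2491, 467 and 230.3 in the nonbrain tissues there (log2 difference -3.89 ± 0.99 (SE), adjusted p = 0.0168) and 21.5, 21, 14.03 and 34.5 in the brain tissues, against 4303, 1529, 216 and 86.6 in the nonbrain tissues in the lncRNA design (log2 difference -4.71 ± 1.13 (SE), adjusted p = 0.013). Kidney had the next level. Kcnq1ot1, a lncRNA, runs antisense through Kcnq1. Kcnn1, a small-conductance channel best known from neurons, had 3571, 973, 2711 and 1333 in the brain tissues, against 6335, 1002, 1238 and 891 in the nonbrain tissues in the lncRNA design (adjusted p = 0.868). It was highest in heart in normalized fragments of both designs, but in FPKM of the splice junction design cortex (13.7) and whole brain (10.1) were above heart (9.15). Kcnj5, which with Kcnj3 forms the muscarinic channel of the atria, had 65.97, 4.98, 33.8 and 16.2 in the brain tissues, against 4058, 62.8, 33.9 and 10.7 in the nonbrain tissues in the splice junction design. Kcnj11 and Kcnj8 are pores of ATP-sensitive channels. Kcnj11 gave 269, 351, 365 and 181 in the brain tissues, against 1436, 12.03, 13.9 and 5.86 in the nonbrain tissues, highest in heart, and Kcnj8 gave 46.3, 52.5, 49.1 and 42.5 in the brain tissues, against 727, 116, 79.2 and 126 in the nonbrain tissues. None of these 3 genes passed over all tissues (adjusted p = 0.338, 0.167 and 0.0602). Without heart, Kcnj11 was higher in brain by 4.68 (adjusted p = 0.000326) in the splice junction design and by 4.16 (adjusted p = 0.00311) in the lncRNA design. Kcnj8 then had a log2 difference of -1.13 (adjusted p = 0.0244) in the splice junction design. For Kcnj8 the order of tissues depended on the scale. In FPKM of that design its level in liver (1.11) was below every brain tissue (2.02 to 2.28). Its FPKM stayed above the brain tissues in kidney (2.77) and in labelled testis (4.09). Kcnk3, a leak channel sensitive to acid, had 419, 775, 187 and 170.0 in the brain tissues, against 3892, 25.3, 36.03 and 19.4 in the nonbrain tissues in the lncRNA design. At 202.2 FPKM it was the highest potassium channel gene of heart in that design, and without heart it was higher in brain by 3.56 (adjusted p = 0.00518). Markers of heart muscle were also present at a low level in the other nonbrain tissues. Tnnt2 and Actc1 had 0.419% and 0.434% of their heart level in kidney, 0.761% and 0.812% in liver and 0.300% and 0.314% in the tissue labelled testis of the splice junction design, but at most 0.0406% in a brain tissue. Ryr2, also on the list of heart muscle markers, had 0.437%, 0.661% and 0.273% in these nonbrain tissues. In the brain tissues it was at 6.17%, 9.10%, 12.8% and 11.2%. Myh6 was listed at 0 in heart of this design, so it has no such share. Kcnj5 had 1.55%, 0.836% and 0.263% of its heart level in kidney, liver and the tissue labelled testis, Kcng2 1.00%, 1.18% and 0.604%, and Kcnk3 1.34%, 1.34% and 0.904%. These were above the shares of Tnnt2, Actc1 and Ryr2, except that Kcnj5 was below them in the tissue labelled testis. The part of the shared low level in these channel genes was not tested.

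Liver and the tissue labelled testis had few potassium channel fragments. Kcnn2 had the highest FPKM in liver of the splice junction design, 21.33. Kcne3, a subunit that keeps Kcnq1 open in epithelia, had 5.79, 0.383, 9.297 and 0.405 in the brain tissues, against 8.02, 48.1, 73.1 and 13.9 in the nonbrain tissues in normalized fragments (log2 difference -2.95 ± 0.93 (SE), adjusted p = 0.0367). Liver was highest on this scale and kidney in FPKM (2.33, against 2.05 in liver). That call was lost without cerebellum, olfactory bulb, kidney or liver, with adjusted p from 0.0827 to 0.0958, and with values scaled to the non-spike-in fragments (adjusted p = 0.0792). Kcnk1, at 36.2 FPKM, was the highest gene of the tissue labelled testis in the splice junction design. Kcnk7 gave 1.45, 6.13, 3.35 and 4.86 in the brain tissues, against 9.62, 0.668, 2.61 and 134 in the nonbrain tissues, and only the tissue labelled testis stood out, where the keratinocyte markers were also high. The part of these cells in the Kcnk7 level was not tested.

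The brain tissues differed among themselves, which is described here without a test, since each brain tissue has 1 library per design. The genes of this paragraph were chosen after their values were seen, as those at least 2-fold higher or lower than in every other brain tissue in both designs. Cerebellum was higher for 4 genes and lower for 15, and olfactory bulb higher for 3 and lower for 5. The rule was not applied to other genes, so these counts do not show a trait of potassium channel genes. Kcng4, a modifier of Kcnb channels, had 1843 normalized fragments in cerebellum, against 119 to 478 in the other brain tissues of the splice junction design. Kcnk10, Kcnt1 and Kcnj12 were the other genes high in cerebellum. Kcnk10 had 2012 in cerebellum against 151 to 648, Kcnt1 7584 against 2118 to 3364, and Kcnj12 36.0 against 4.86 to 8.10. Among the genes low in cerebellum were Kcna4, Kcnb2, Kcnc2, Kcnf1, Kcnh3, Kcnh5, Kcnh7, Kcnip2, Kcnj2, Kcnj4, Kcnq3, Kcnq5, Kcnt2 and Kcnv1. Kcnh3 had 157 in cerebellum against 3609 to 6668 in the other brain tissues, and Kcnt2 136 against 917 to 10063. Kcnv1 had 14.2 against 287 to 1669.8 in the splice junction design and was listed at 0 in cerebellum of the lncRNA design.

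Olfactory bulb was high for Kcnb2, Kcnh2 and Kcnn4. Kcnn4, an intermediate-conductance calcium-activated channel, had 119 normalized fragments in olfactory bulb against 2.60 to 20.5 in the other brain tissues of the splice junction design. Kcnb2 had 129 against 10.4 to 42.0, and Kcnh2 1079 against 323 to 479. Low in olfactory bulb were Kcna1, Kcnab1, Kcnc4, Kcnip4 and Kcnk1. Kcnab1 had 747 there against 6673 to 11023. Summed cerebellum markers were 4202 FPKM in cerebellum, 647 FPKM in whole brain, 107 FPKM in cortex and 30.6 FPKM in olfactory bulb of the splice junction design. Whole brain and cortex libraries thus held some signal of these markers. Of the cortex sum, 91.0 FPKM came from Calb1, which is not particular to cerebellum, since kidney had 119 FPKM of it. The part of cerebellar cells in the levels above was not tested.

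**Figure D4:**
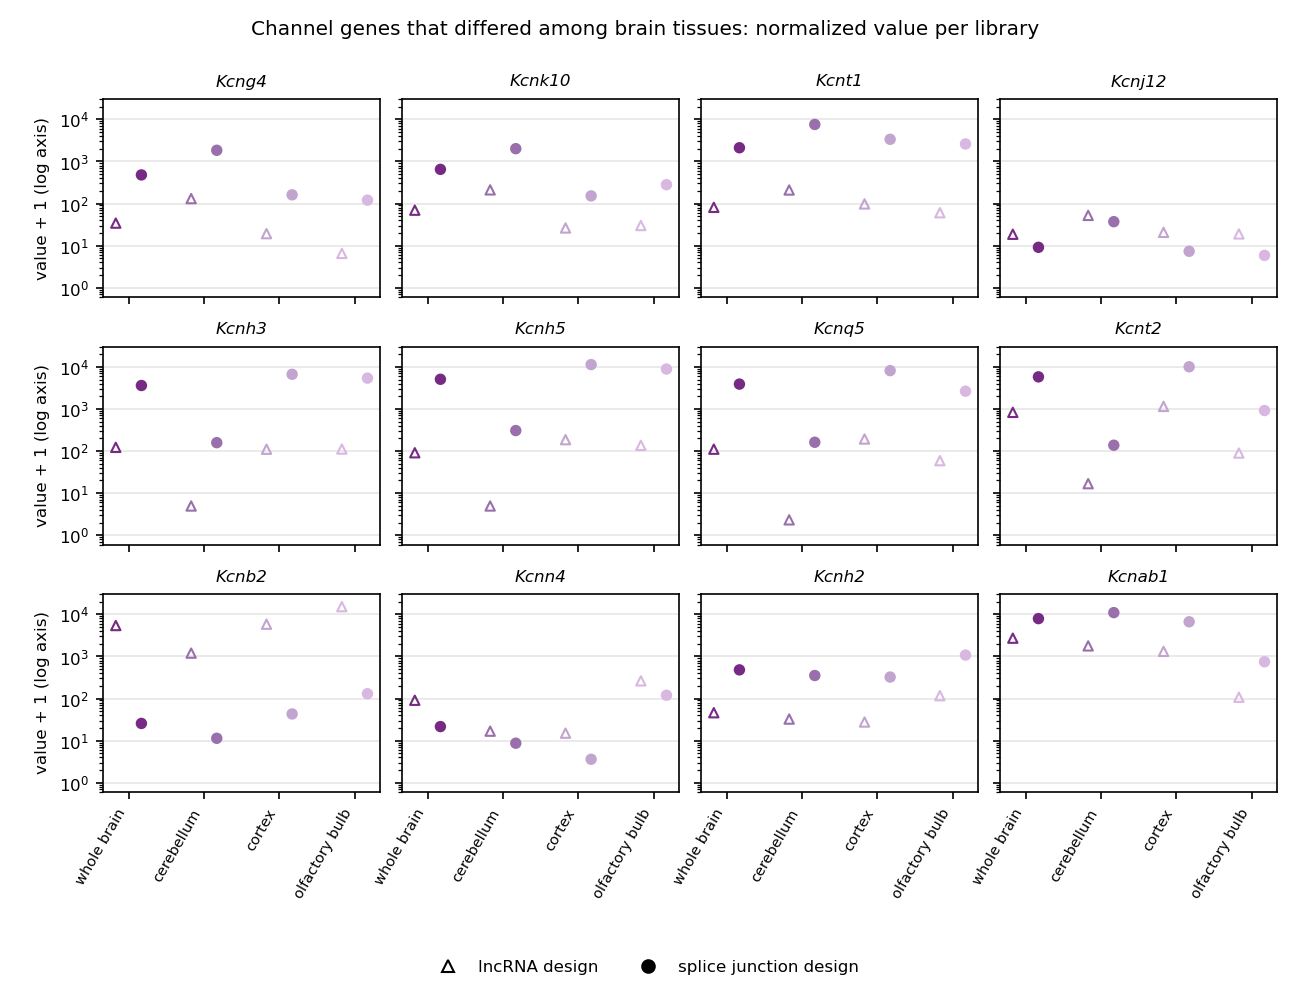
Normalized fragments + 1 (log axis) of 12 potassium channel genes that differ between the brain tissues, which are the only tissues drawn. Open triangles are the lncRNA design and filled circles the splice junction design, with 1 library each. Kcng4, Kcnk10 and Kcnt1 are highest in cerebellum, whereas Kcnh3, Kcnh5 and Kcnq5 are lower in cerebellum than in the other brain tissues.

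Of 53 genes with at least 30 fragments in both designs in some tissue, 39 had their highest tissue, by normalized fragments, in common between the designs. Cortex was the highest tissue of the splice junction design for 30 genes, followed by cerebellum and olfactory bulb for 14 each, heart for 12, kidney for 4, the tissue labelled testis for 2 and liver for 1. For the lncRNA design these were cortex for 16, whole brain for 11, cerebellum for 10, heart for 9, olfactory bulb for 6 and kidney for 4. Such counts were not made for other genes, and they depend on the scale. In FPKM of the splice junction design, heart was below olfactory bulb for Kcnip2 and Kcnh2 and below cortex for Kcnn1.

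The capture designs were compared with tissue as a factor (n = 8 tissues in each design), on 77 potassium channel genes. Levels with the lncRNA probes were higher for 18 and lower for 52 of them. Over all 30789 gene models these shares were 60.1% and 34.6%. Protein-coding genes went mostly the other way, with 3700 higher and 9768 lower of 14841. The median log2 difference was -2.59 for the potassium channel genes and -2.79 for protein-coding genes, so the members lay near other protein-coding genes in this respect. The splits depend on the scaling. With values scaled to the non-spike-in fragments, 14 members were higher and 52 lower, and with quantile normalization 8 and 57. Other genes shifted as well. Of protein-coding genes, 14.2% were higher and 68.7% lower with the first scaling and 11.5% and 78.7% with the second, against 24.9% and 65.8% with the deposited scaling, and over all gene models the shares were 54.4% and 36% with the first and 45.1% and 41.6% with the second. The genes lower in the lncRNA design by the most were Kcnk5 (-5.68 ± 0.49, SE), Kcnh1 (-5.56 ± 0.32) and Kcnip2 (-5.30 ± 0.18), with adjusted p of 1.70e-06, 7.83e-08 and 3.12e-09. Large positive differences were those of Kcnh7 (5.60 ± 0.85) and Kcnb2 (4.85 ± 0.88), with adjusted p of 0.000139 and 0.000473. Kcnh1 and Kcnip2 were higher in the lncRNA design in none of the 8 tissues.

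**Figure D5:**
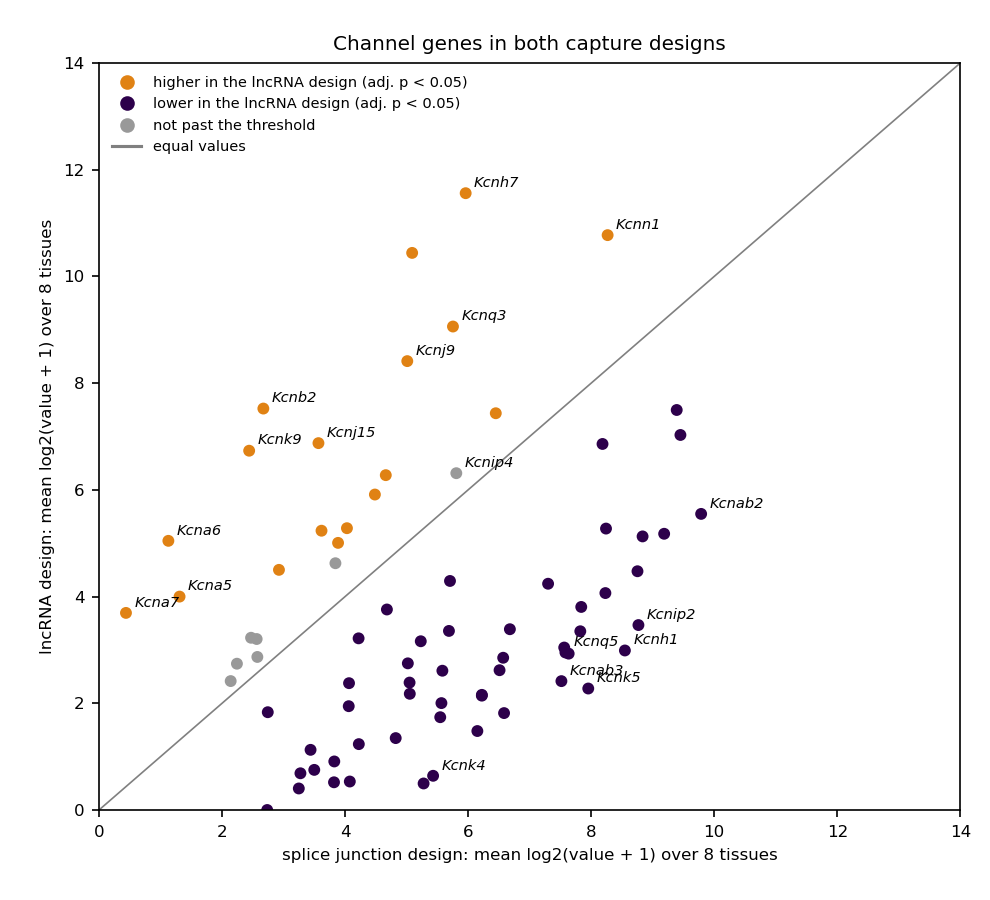
Mean of log2(normalized fragments + 1) over the 8 tissues of each potassium channel gene, with the lncRNA design on the vertical axis and the splice junction design on the horizontal axis. Orange points passed an adjusted p under 0.05 with the higher level in the lncRNA design, dark purple points passed with the lower level there, grey points did not pass, and the line marks equal values. Most points lie below the line, and Kcnh7, Kcnb2 and Kcnk9 lie above it.

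The fragments of the lncRNA design fell on other transcripts of these genes. Of the members' fragments, 20.6% (lncRNA design) and 58.5% (splice junction design) were on 223 transcripts whose introns all match those of a single GENCODE M21 transcript. A further 68.4% and 34.3% were on 109 transcripts with a junction that GENCODE M21 lacks, 0.621% and 6.46% on 39 transcripts that match part of a chain, and 10.4% and 0.705% on 17 single exon transcripts. How Cuffnorm divided fragments between isoforms of a gene is its estimate. For Kcnq3, 83.05% (lncRNA design) and 0.228% (splice junction design) of the fragments were on a transcript of 15 exons and 11013 nt, of which 2155 are coding bases and 8787 UTR bases of annotated transcripts. Of this transcript, 2 introns are not in GENCODE, the longer from 66025195 to 66028624 on chromosome 15 (3430 bases, minus strand). For Kcnh7, 99.95% and 3.04% of them were on a transcript of 12874 nt with 9535 UTR bases, whose new intron lies at 62877358 to 62879539 on chromosome 2 (2182 bases, minus strand). Kcnb2 had 99.7% of its fragments in the lncRNA design on a transcript of 14335 nt with 12124 UTR bases.

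Kcnk9 was the extreme case. In the lncRNA design 84.7% of its fragments, and 55.2% in the splice junction design, were on a single exon of 3981 bases on chromosome 15 (72506968 to 72510948, minus strand), all of which is UTR of the annotated gene. A second single exon of 1130 bases, at 72501687 to 72502816, held 14.6% of them in the lncRNA design. Kcnj15 in kidney was dominated by a transcript with a GENCODE chain (95257659 to 95300260, 4919 nt, 3783 UTR bases), which held 97.4% of the gene's fragments in the lncRNA design. Annotated lncRNAs lie antisense to Kcnj15 (Gm49643) and to Kcnj9 (Gm36937). Probe positions were not used here, so the link of these transcripts to the probes was not tested.

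Whether the brain difference itself depended on the design was tested on the 8 differences between designs within a tissue, brain against nonbrain (limma, n = 4 tissues each). The difference was larger in the lncRNA design for 6 of 77 genes and smaller for 16, against shares of 14.1% and 4.08% over all gene models. Of protein-coding genes, it was larger for 7.36% and smaller for 4.59%. Larger and smaller refer to the signed difference, so for a gene lower in brain a larger value is a weaker difference. Kcnk9 had the largest positive interaction (8.59 ± 0.38 (SE), adjusted p = 3.53e-06), followed by Kcnb2 (4.5 ± 0.95 (SE), adjusted p = 0.00914). For both, the brain tissues were far higher in the lncRNA design. The nonbrain tissues were listed at 0 for Kcnk9 in both designs, and Kcnb2 had 14.3, 43.9, 0 and 2.28 normalized fragments there in the lncRNA design, against at most 0.668 in the splice junction design. Kcnj1 had an interaction of 4.19 ± 0.64 (SE), adjusted p = 0.00151, and its level in heart and liver was above 0 in the splice junction design only. Kcnj1 was lower in brain, so this positive value is a weaker difference in the lncRNA design. Kcnc1, Kcna6 and Kcnj4 were the other genes with a positive value. With only the transcripts that overlap a single gene, Kcnj4 could no longer be tested, so its levels rest on a transcript that overlaps another gene. The largest negative value was that of Kcnh7 (-5.02 ± 0.42 (SE), adjusted p = 4.76e-05). Its nonbrain tissues had 1755, 1186, 695 and 193 normalized fragments in the lncRNA design, against at most 4.68 in the splice junction design. With only the transcripts that overlap a single gene, the interaction of Kcnh7 was -0.89 (adjusted p = 0.304), so this call rests on a transcript that overlaps another gene. Kcnj6 (-4.54 ± 0.35 (SE), adjusted p = 3.18e-05) and Kcnj13 (-4.42 ± 0.62 (SE), adjusted p = 0.000922) had more fragments in the brain tissues of the splice junction design, Kcnj6 with 45, 61.7, 54.7 and 24.9 in the lncRNA design against 1021, 1108, 1299 and 832 in the splice junction design. A gene listed at 0 outside brain has a smaller log2 difference where its brain level is lower, and this holds for Kcnj6, Kcnv1 and Kcnc4. For a gene listed at 0 outside brain in both designs, the interaction is the difference between designs in the brain tissues alone. This applies to Kcnk9, Kcnc1, Kcnj6, Kcnv1, Kcnc4 and Kcnmb4, whose values cannot show that the brain difference depended on the design. Kcng3, Kcnh4, Kcnh8, Kcnj13, Kcns1 and Kcnu1 had a mean under 10 normalized fragments in the lncRNA design. So did Kcna6 and Kcna7 in the splice junction design. Their brain difference was not tested there, so their interaction rests on a low level in that design. In the lncRNA design Kcng3, Kcnh8, Kcns1 and Kcnu1 had at most 6 fragments in any library. The count of smaller differences moved to 31 with a pseudocount of 5, to 32 with values scaled to the non-spike-in fragments and to 27 with quantile normalization. The share of all gene models with a smaller difference moved too, to 5.8%, 16.3% and 10.3% under these settings, and that of protein-coding genes was 7.35%, 22.6% and 13.5%, against 4.59% without them.

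Windows of 300 bases around RefSeq starts were at hand for 69 of the 94 genes, 94 windows in all. TATAAA, on either strand, occurred in 5 of them (5.32%), against 13.62% of all 32851 windows, and GGGCGG, on either strand, in 45 (47.87%), against 35.66%. TATAAA and its reverse complement TTTATA can overlap each other, while neither can overlap GGGCGG or CCGCCC. Median GC content was 58.0% in the members' windows and 52.7% in all windows. Of the members' windows, 64, of 51 genes, had an assembled transcript that starts within 50 bases of the RefSeq start. A match of letters is a description and not a binding site.

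Genes whose proteins bind to potassium channels were taken as a list of 17 (among them Abcc8, Abcc9, Dpp6, Dpp10, Amigo1, Lgi1, Cntnap2, Akap9, Ank3, Lrrc26, Lrrc38, Lrrc52, Lrrc55 and Dlg4). In the splice junction design 9 of 13 tested were higher in brain, against 21.5% of all gene models, and in the lncRNA design 9 of 15, against 21.7%. The others did not pass in either direction. Dpp6 and Dpp10, auxiliary subunits of Kcnd channels, were higher in both. Dpp10 had 14696, 16508, 19019 and 20330 normalized fragments in the brain tissues of the splice junction design, against 3.21, 19.4, 0.870 and 2.67 in the nonbrain tissues (log2 difference 11.8 ± 0.68 (SE), adjusted p = 1.42e-05). Abcc9, the subunit that heart and vessels pair with Kcnj11 and Kcnj8, had 1262, 1434, 1385 and 1140 in the brain tissues, against 95448, 3752, 7274 and 2637 in the nonbrain tissues (log2 difference -2.81 ± 1.04 (SE), adjusted p = 0.0631), and heart was the highest, as for Kcnj11. Abcc8, the subunit of neurons and beta cells, had 1613, 5541, 3039 and 934 in the brain tissues, against 4395, 48.1, 43.5 and 15.5 in the nonbrain tissues (adjusted p = 0.0675).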

How the data were processed

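RNA of 4 brain and 4 nonbrain tissues of adult C57BL/6J mice, depleted of ribosomal RNA, was captured with 2 probe designs and sequenced, with 1 library per tissue and design. Groups follow the labels of the samples. According to the methods of the study and the submitters' processing notes, the authors aligned reads to GRCm38 with TopHat2, assembled transcripts with Cufflinks 2.2.1 guided by GENCODE M4 and merged the assemblies. The deposited signal values are the authors' Cuffnorm 2.2.1 estimates of fragments per transcript, scaled by a factor per library, and are called normalized fragments. The deposited assembly gives exons only, so transcripts were assigned anew to GENCODE M21 genes by the largest exonic overlap on the same strand, and 9 of the 388 transcripts of potassium channel genes overlapped more than 1 gene. Cuffnorm's division of fragments among isoforms, and any antisense reads, can shift values between overlapping genes. The value of 1 fragment in each library was found from the smallest steps of gene sums, which up to 20 steps were whole to within 0.1 of a step, and gave 395430774 fragments in all, or 8930235 to 43889288 per library. FPKM was rebuilt from these fragments.

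Genes were compared with limma 3.58.1 in R 4.3.3 on log2(normalized fragments + 1), for gene models with a mean of at least 10 normalized fragments over the libraries of the fit, since the values are not raw counts. Brain and nonbrain tissues were compared within each design (n = 4 tissues each), the designs with tissue as a factor (n = 8), and the brain difference between designs by an interaction on the 8 differences within a tissue. The threshold was a Benjamini-Hochberg adjusted p of 0.05 over all gene models. A fold change is on the log2(value + 1) scale, which understates changes of low genes. Shares have 95% Wilson intervals, which cover counting error only. The script was tested on simulated data. Alternatives were pseudocounts of 0.5 and 5, no filter or a mean of at least 50, scaling to non-spike-in fragments, quantile normalization, single-gene transcripts, a trended prior, both designs averaged, and leaving out each tissue. Genes were named as the 10 largest differences per direction and comparison past the threshold, the 3 highest by FPKM per tissue, those highest in a nonbrain organ in both designs with at least 30 fragments there, those past the threshold in the interaction, those with no fragment, and a list of well-known channels. Results of some of these genes are not reported here. Other members named were chosen after their values were seen. The members and the lists were chosen with earlier results of these data known. Probe positions and GENCODE M4 were not used here. Promoter windows are from RefSeq on GRCm38.p6. Figures were drawn with matplotlib 3.10.9, and Python 3.11.15 and pandas 2.3.3 were used.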

Additional observations from a re-analysis of the deposited data

Results flagged for a closer look

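Dixon's test was run on 32 groups of 4 tissues (the share of all potassium channel genes, and the summed FPKM of families with at least 4 genes that reached 10 FPKM, in the brain and in the nonbrain tissues of each design). It marked 6 samples as far from the other 3. Chance marks about 1 in 20 groups of independent draws from a normal distribution. Different tissues are not such draws, so the number of marks cannot be set against this rate. The share of fragments on potassium channel genes in kidney was 0.4206% in the lncRNA design. Kcnj in kidney summed to 805.7 FPKM in that design, nearly all of it from Kcnj15, which also gave most of the kidney share. In heart of the lncRNA design, Kcnk summed to 202.3 FPKM, nearly all from Kcnk3, and Kcnn to 80.71 FPKM, nearly all from Kcnn1. Heart of the splice junction design stood apart for Kcnip, at 158.7 FPKM, nearly all Kcnip2, and for Kcng, at 39.5 FPKM, nearly all Kcng2.

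The log2 difference between brain and nonbrain tissues differed between the designs for 22 genes by the interaction (limma, adjusted p under 0.05). Among these, it was smaller in the lncRNA design by -5.02 for Kcnh7, -4.54 for Kcnj6, -4.42 for Kcnj13, -4.1 for Kcna7, -3.8 for Kcng3, -3.52 for Kcnu1, -3.44 for Kcns1 and for Kcnh4, -3.37 for Kcnv1, -3.3 for Kcnh8, -3.27 for Kcnh3, -2.0 for Kcnc4, -1.82 for Kcnmb4, -1.44 for Kcnh1 and -1.32 for Kcnt2. It was larger by 1.88 for Kcnj4, 3.15 for Kcnc1, 3.39 for Kcna6, 4.19 for Kcnj1, 4.5 for Kcnb2 and 8.59 for Kcnk9. These values are signed. Kcnj1 was lower in brain, and its positive value marks a weaker difference in the lncRNA design. The negative value of Kcna7, also lower in brain, marks a stronger one. Kcnk9, Kcnc1, Kcnj6, Kcnv1, Kcnc4 and Kcnmb4 were listed at 0 outside brain in both designs, so their values reflect the brain tissues only. Kcng3, Kcnh4, Kcnh8, Kcnj13, Kcns1 and Kcnu1 were too low to be tested in the lncRNA design. Kcna6 and Kcna7 were too low in the splice junction design. Their values rest on a low level in that design. The calls of Kcna6, Kcnh1, Kcnmb4, Kcnt2 and Kcnu1 were lost when at least 1 tissue was left out, with the direction kept. The call of Kcnh7 was lost with transcripts of a single gene (-0.89, adjusted p = 0.304). Kcnj4 could then no longer be tested.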

How the results depend on the processing

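Each named gene was set against its main result once per comparison and alternative. In 3210 of these cases the gene stayed on the same side of the threshold, with the direction kept where it passed. Genes that passed in neither fit are counted there whatever their direction. In 74 cases a gene passed only under the alternative, in 114 it no longer passed and in 5 it changed direction. Leaving out each tissue in turn gave 46 to 56 members higher and 4 to 6 lower in brain in the splice junction design. In the lncRNA design it gave 32 to 42 and 3 to 4. Between the designs, 17 to 21 were higher and 47 to 52 lower in the lncRNA design. The signed brain difference was larger in the lncRNA design for 5 to 7 members and smaller for 13 to 17. With a mean of at least 50 normalized fragments, under which fewer genes are tested, 23 members were higher in brain in the lncRNA design. With both designs averaged, 6 were lower. Under quantile normalization 8 members were higher in the lncRNA design than in the splice junction design, and the direction changed for Kcnip4 (-1.093), Kcnj2 (-1.397), Kcnk3 (-0.671), Kcna5 (-0.314) and Kcna2 (-0.290), of which the main difference of Kcnip4 had not passed. The signed brain difference was smaller in the lncRNA design for 31 members with a pseudocount of 5. It was so for 32 with values scaled to non-spike-in fragments and for 27 with quantile normalization. The causes of these shifts were not tested. Over all gene models, scaling to non-spike-in fragments moved the splice junction split to 6699 higher and 1466 lower in brain, with the median log2 difference at 1.12, against 3786 and 2854 and a median of 0.11. Quantile normalization moved the lncRNA split to 4415 higher and 4605 lower, with 31 and 4 members.

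No paired analysis was possible because brain and nonbrain tissues share no animal or replicate number in the labels, and each tissue has 1 library per design. A level under 3 fragments cannot be told from none, and 6 members in the splice junction design and 12 in the lncRNA design stayed below this in every library, the 4 with no assigned transcript included. With 1 library per tissue and design, variation between mice was not measured.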
